A study of Mus musculus with 8 samples.

Results

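Of the genes that mark the meninges and the stroma of vessels, 9 were followed here by name: Igf2, Igfbp2, Ptgds, Col1a1, Col1a2, Col3a1, Dcn, Bgn and Timp1. They were chosen by symbol, with earlier results of these data known. The array carried 18 probe sets for them among 12422 probe sets without controls. Of these, 13 probe sets, which stand for 8 of the 9 genes, passed the filter on low signals that left 7453 probe sets for testing. Col3a1 did not pass with any of its probe sets.

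The signals came from the cortex of individual mice, on 8 Affymetrix arrays, with 2 mice in each of 4 groups. The groups were S1/2-/- mice at ZT16, S1/2-/- mice at ZT4, WT mice at ZT16 and WT mice at ZT4, all aged 4 months according to the labels, which give the strain C57/bl6 for every sample. ZT counts hours from light onset in the light-dark cycle under which all mice were kept, so ZT4 lies in the light and ZT16 in the dark. S1/2-/- mice are null mutants of both Sharp1 (Bhlhe41) and Sharp2 (Bhlhe40), which encode basic helix-loop-helix repressors of the molecular clock. The methods describe male mice from double heterozygous parents, backcrossed to C57Bl/6J, with cortex dissected from coronal slices. Neither labels nor methods describe removal of the meninges or of the choroid plexus.

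The meninges are layers of fibroblasts that wrap the brain and follow its larger vessels inward. Their fibroblasts secrete collagens and small leucine-rich proteoglycans into the extracellular matrix, release the growth factor IGF2 into the cerebrospinal fluid, and make the lipocalin-type prostaglandin D synthase encoded by Ptgds. In the brain these genes are not private to the meninges: the choroid plexus also transcribes Igf2, Igfbp2 and Ptgds, oligodendrocytes also transcribe Ptgds, and TIMP1 is made by several cell types as an inhibitor of matrix metalloproteinases. In whole cortex, fewer cells of a type and less RNA per cell cannot be told apart.

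SHARP1 and SHARP2 bind E-boxes, so the promoter windows of the genes were searched for the E-box CACGTG, and for the CCAAT box (CCAAT), the GC box (GGGCGG) and the AP-1 motif (TGANTCA), on both strands. The windows come from RefSeq on GRCm38.p6 and run from 250 bases before to 50 bases from each annotated start. The table held 11 windows for 7 of the 9 genes, which left Col1a1 and Dcn without one. The E-box occurred in 1 of the 11 windows and in 7.15% of all 32851 windows. The CCAAT box occurred in 3 of 11 (37.4% of all windows), the GC box in 6 of 11 (35.7%) and the AP-1 motif in 2 of 11 (7.81%), 1 of them in Ptgds and 1 in the second window of Igfbp2. A match describes the letters only. The E-box lay in Igfbp2, 142 bases before the start, in the window at chr1:72824230-72824529, plus strand. It is shown because Igfbp2 was the only one of these 8 tested genes with every S1/2-/- signal above every WT signal, with the E-box and 3 GC boxes in capitals.

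Igfbp2: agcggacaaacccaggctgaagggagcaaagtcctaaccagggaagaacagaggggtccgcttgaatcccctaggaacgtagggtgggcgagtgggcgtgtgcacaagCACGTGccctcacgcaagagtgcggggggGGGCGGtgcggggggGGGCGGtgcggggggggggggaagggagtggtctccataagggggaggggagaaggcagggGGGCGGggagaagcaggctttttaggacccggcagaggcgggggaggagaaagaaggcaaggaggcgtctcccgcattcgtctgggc

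The window of Igf2 at chr7:142657447-142657746, minus strand, the last of its 4 annotated starts, and that of Timp1 at chrX:20869916-20870215, plus strand, are shown because these 2 of the 9 genes had the lowest p for a difference between ZT16 and ZT4 that itself differed between the genotypes. The window of Col1a2, at chr6:4505368-4505667, plus strand, stands for the fibrillar collagens. None of these holds the E-box, and CCAAT and GC boxes, on either strand, are in capitals.

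Igf2: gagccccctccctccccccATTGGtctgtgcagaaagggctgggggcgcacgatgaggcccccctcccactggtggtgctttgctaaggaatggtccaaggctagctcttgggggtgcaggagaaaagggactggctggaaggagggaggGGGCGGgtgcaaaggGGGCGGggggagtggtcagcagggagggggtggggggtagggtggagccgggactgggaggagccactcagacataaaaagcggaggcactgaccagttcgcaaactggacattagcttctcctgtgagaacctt

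Timp1: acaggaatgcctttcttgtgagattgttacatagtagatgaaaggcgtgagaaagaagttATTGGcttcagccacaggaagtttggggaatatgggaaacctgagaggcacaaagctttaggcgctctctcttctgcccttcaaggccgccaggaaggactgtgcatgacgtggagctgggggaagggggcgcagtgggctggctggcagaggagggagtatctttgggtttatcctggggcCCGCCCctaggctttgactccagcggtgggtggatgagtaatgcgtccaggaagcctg

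Col1a2: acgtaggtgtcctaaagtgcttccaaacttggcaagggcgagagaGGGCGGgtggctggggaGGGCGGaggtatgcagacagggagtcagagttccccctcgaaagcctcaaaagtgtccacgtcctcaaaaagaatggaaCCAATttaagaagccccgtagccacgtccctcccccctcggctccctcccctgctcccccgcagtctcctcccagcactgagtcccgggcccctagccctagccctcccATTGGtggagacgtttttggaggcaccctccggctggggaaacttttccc

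The arrays had median signals of 186 to 206 and replicates correlated at 0.936 to 0.940 on the log2 scale. Bhlhe40 itself gave signals of 834 to 1043 in S1/2-/- samples and 983 to 1285 in WT samples. Since the sources do not place its probes inside or outside the deleted sequence, this does not check the genotype labels. Markers of cortical excitatory neurons, 8 genes, were all measured above the filter, with a summed signal of 16491 to 18182 in S1/2-/- samples and 13208 to 16360 in WT samples. Among the other fibroblast genes, the meningeal transporter Slc6a13 gave 319 to 480, but the meningeal transcription factor Foxc1 (2.32 to 68.3), the retinoic acid enzyme Aldh1a2 (12.4 to 115) and the matrix protein Ogn (34.9 to 96.4) stayed below the filter. Of the meningeal genes, the transcription factor Zic1 (256 to 460) passed the filter, and the transporter Slc22a6 (24.6 to 135) did not, so the markers of the label were mixed. WT at ZT4 replicate 2 stood apart from the other arrays in type I collagen, in 3 of its 4 probe sets. It also stood apart in several granulocyte genes (S100a8 765, against 22.4 to 91.5 elsewhere). The 3 probe sets of Col3a1, all below the filter, were not high there. They stood at 0.972-, 0.265- and 0.303-fold of the other 7 arrays, whose mean was taken on the log2 scale. The last 2 ratios rest on signals of 6.97 and 2.09 there, near background, and do not show whether Col3a1 was low.

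None of the genes passed the test between genotypes or times. The test was limma's moderated statistic with Benjamini-Hochberg adjustment over all 7453 probe sets, and calls needed both a fold over 1.5 and an adjusted p under 0.05. Called were 0 of the 13 probe sets in all 7 comparisons, against 0.0939% of all tested probe sets for S1/2-/- minus WT at ZT4, 0.0134% at ZT16 and 0.255% for the mean of both times. For ZT16 minus ZT4 the called share was 0.0134% in WT, 0% in S1/2-/- and 0% for the mean of both genotypes, and it was 0% for the difference of the changes. At an unadjusted p under 0.05, S1/2-/- and WT at ZT4 differed in 5 of the 13 probe sets, against 7.29% of all. Of these, 2 were higher (Igf2, Igfbp2) and 3 lower in S1/2-/- (2 of Ptgds and Timp1). By gene, each from its probe set with the highest mean, 2 of the 8 were higher and 1 lower at that p. At ZT16 the count was 0 of 13 probe sets, against 10.9%, and for the mean of both times 1 of 13 (Igfbp2), against 12.4%. Between ZT16 and ZT4 it was 3 of 13 in WT against 7.61%, 2 of 13 in S1/2-/- against 7.31%, and 2 of 13 for the mean of both genotypes against 9.38%. The difference of the changes reached it in 2 of 13 (Igf2 and Timp1), against 5.69%. Because the genes were chosen with earlier results known, these counts are a description. With 1 probe set a gene, the median log2 difference of the 8 genes between S1/2-/- and WT was 0.08 at ZT16 and -0.0046 at ZT4, beside medians of 0.0063 and -0.0040 over all tested probe sets.

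**Figure D1:**
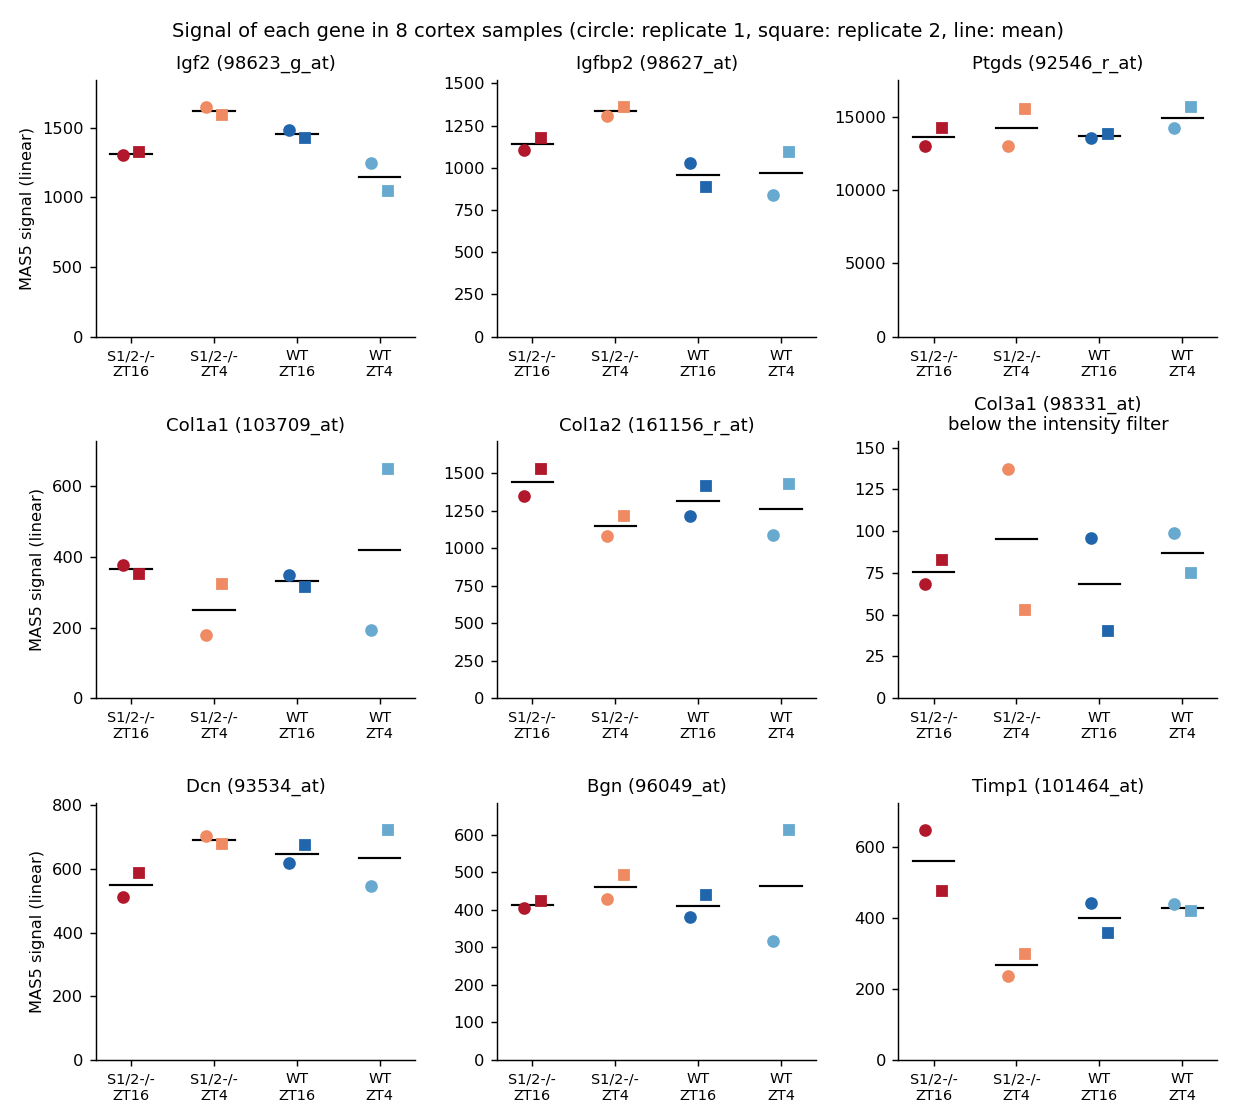
Signal of each of the 9 genes (MAS5 signal, linear axis from 0) in S1/2-/- mice at ZT16 and ZT4 and WT mice at ZT16 and ZT4, from the probe set with the highest mean. Circles are replicate 1, squares replicate 2 and lines the mean of 2 mice. Igfbp2 lies between 1107 and 1358 in S1/2-/- samples, above all WT samples at 841 to 1092, while Col1a1 has its highest signal, 649.8, in WT at ZT4 replicate 2.

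Igf2 encodes a secreted growth factor that signals through the IGF1 receptor. Its probe set 98623_g_at, of a design that can bind related transcripts of the same gene, gave 1303 and 1323 in S1/2-/- mice at ZT16 and 1648 and 1593 at ZT4. In WT mice it gave 1485 and 1426 at ZT16 and 1248 and 1045 at ZT4. The groups did not overlap, and the order from high to low was S1/2-/- at ZT4, WT at ZT16, S1/2-/- at ZT16 and WT at ZT4. With 2 mice in each group, how many probe sets separate in this way was not counted. Within this order, S1/2-/- and WT at ZT16 stood next to one another and their difference was within its error (log2 difference -0.15, 95% interval -0.42 to 0.13, adjusted p = 0.677, limma). At ZT4 the log2 difference between S1/2-/- and WT was 0.50 (SE 0.12, adjusted p = 0.285, limma), from means of 1620.2 ± 38.7 and 1146 ± 143 (SD, n = 2 each). It ran from 0.38 to 0.63 when 1 mouse was left out and was lowest without WT at ZT4 replicate 2.

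The ZT16 minus ZT4 values of Igf2 had opposite signs in the genotypes. In S1/2-/- mice both ZT16 signals of Igf2 lay below both ZT4 signals, with a log2 difference of -0.30 (SE 0.12, adjusted p = 0.638, limma). In WT mice both ZT16 signals lay above both ZT4 signals, with a log2 difference of 0.35 (SE 0.12, adjusted p = 0.625, limma), and 0.22 without WT at ZT4 replicate 2. The difference of these changes, S1/2-/- minus WT, was -0.65 (SE 0.17, adjusted p = 0.620, limma) and did not pass. The second probe set of Igf2, 98622_at, gave 10.1 to 59.1 on all arrays, in the range of the weakest signals, and was not tested.

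Choroid plexus genes differed across the same samples. Ttr, which encodes the thyroid hormone carrier transthyretin and is the defining transcript of the choroid plexus, gave 102 and 150.4 in S1/2-/- mice at ZT16 and 1456 and 146 at ZT4, against 2582 and 2412 in WT at ZT16 and 83.2 and 331 at ZT4. Folr1, a folate receptor, gave 23.3 and 31.5 in S1/2-/- mice at ZT16 and 116 and 124 at ZT4, against 364 and 335 in WT at ZT16 and 33.9 and 77.4 at ZT4. Kl, which encodes klotho, had its highest signals in both WT samples at ZT16 (399.7 and 213) and in S1/2-/- at ZT4 replicate 1 (178), and 12.1 to 24.9 elsewhere. Folr1 and Kl were below the filter and not tested. The summed signal of the 18 choroid plexus genes on the array was 5731 and 5929 in S1/2-/- mice at ZT16 and 6830.2 and 6053 at ZT4, against 9403 and 8732 in WT at ZT16 and 4639 and 5113 at ZT4. Of the 9 tested, 8 were higher and 1 lower in S1/2-/- than in WT mice at ZT4, and 1 was higher and 8 lower at ZT16. Of all tested probe sets, 49.3% were higher in S1/2-/- at ZT4 and 50.8% at ZT16. At ZT16 against ZT4 in WT mice 8 of the 9 were higher, 6 of them with an unadjusted p under 0.05 (limma). Of all tested probe sets, 49.4% were higher and 7.61% had such a p in either direction. None of the 9 was called in any comparison. In S1/2-/- at ZT4 replicate 2 the choroid plexus genes were mixed. Ttr (146) and Kl (12.1) were low there. Folr1 (124) was above its signals in both S1/2-/- samples at ZT16 and both WT samples at ZT4. Slc12a2 (2315) and Car14 (409.8) had their highest signals of the 8 arrays. Slc12a2 (1677 to 2315) and Atp1b2 (777 to 1451) were high on every array, also where Ttr was low, and weigh heavily in the summed signal. The part of choroid plexus tissue in the Igf2 signal was not tested.

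**Figure D2:**
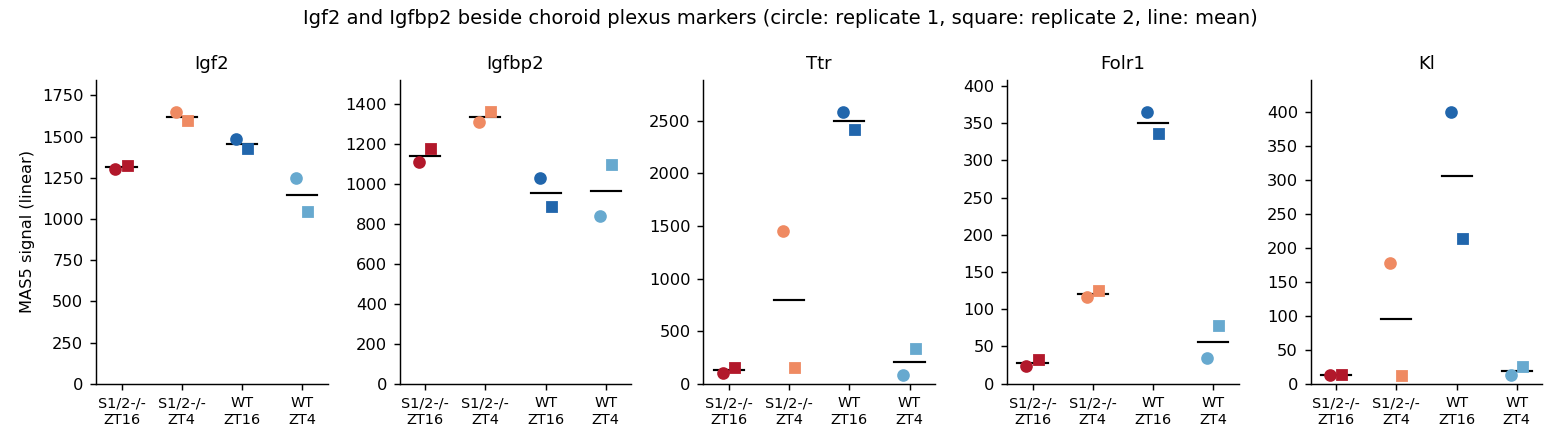
Signals (MAS5, linear axis from 0) of Igf2 and Igfbp2 beside the choroid plexus markers Ttr, Folr1 and Kl, in S1/2-/- mice at ZT16 and ZT4 and WT mice at ZT16 and ZT4. Circles are replicate 1, squares replicate 2 and lines the mean of 2 mice. Ttr reaches 2582 and 2412 in WT at ZT16 and 1456 in S1/2-/- at ZT4 replicate 1, and Igf2 is high in the same 3 samples and in S1/2-/- at ZT4 replicate 2 (1593), where Ttr is 146 and Folr1 is 124.

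By pattern over the 8 arrays, the tested genes most like Igf2 were Zbtb22, Prpf38b, Numb, Srsf4 and Nfe2l2. The measure was the mean absolute difference of the log2 signals, each taken around its own mean, and it ran from 0.06 for Zbtb22 to 0.08 for Nfe2l2, with a median of 0.24 over all tested probe sets. The 8 arrays share their groups, so this is a description. Zbtb22, for example, gave 636 and 607 in S1/2-/- at ZT16 and 673 and 714 at ZT4, against 676 and 683 in WT at ZT16 and 591 and 500.2 at ZT4.

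Igfbp2 encodes a secreted protein that binds IGF1 and IGF2 and limits their access to the receptor. It gave 1107 and 1173 in S1/2-/- mice at ZT16 and 1309 and 1358 at ZT4, against 1027 and 885 in WT mice at ZT16 and 841 and 1092 at ZT4. All 4 S1/2-/- signals were above all 4 WT signals, which held for 3.43% of the tested probe sets. The means were 1237 ± 116 in S1/2-/- and 961 ± 118 in WT (SD, n = 4 each). The log2 difference over both times was 0.37 (SE 0.11, 95% interval 0.13 to 0.61, adjusted p = 0.249, limma), a fold of 1.29. At ZT4 the log2 difference was 0.48 (SE 0.15, adjusted p = 0.461, limma) and at ZT16 it was 0.26 (SE 0.15, adjusted p = 0.549, limma). When 1 mouse was left out, the log2 difference ran from 0.27 to 0.46 over both times, from 0.29 to 0.66 at ZT4 and from 0.15 to 0.37 at ZT16. It was lowest over both times and at ZT4 without WT at ZT4 replicate 1, and highest in both without WT at ZT4 replicate 2. At ZT16 it was lowest without WT at ZT16 replicate 2. The lowest S1/2-/- signal, 1107, stood close to the highest WT signal, 1092, in WT at ZT4 replicate 2.

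Of 18 other listed genes of the IGF axis, 13 were on the array and 6 were tested: the ligand Igf1, the receptors Igf1r and Igf2r, the binding proteins Igfbp4 and Igfbp6, and the adaptor Irs2. None was called in the 7 comparisons, and an unadjusted p under 0.05 was reached by Igfbp6 over both times and by Igfbp4 between the times in S1/2-/- mice, 1 comparison each. Their median log2 difference between S1/2-/- and WT was 0.29 at ZT16, with 4 higher and 2 lower, and -0.11 at ZT4, with 2 higher and 4 lower. Igf1 gave 1091 and 1178 in S1/2-/- mice at ZT16 and 962 and 868 at ZT4, against 815 and 1047 in WT at ZT16 and 852 and 821 at ZT4. Within each time both S1/2-/- signals of Igf1 lay above both WT signals, and over both times the genotypes overlapped. How many probe sets separate within each time was not counted. The log2 difference of Igf1 was 0.30 at ZT16 (adjusted p = 0.498, limma) and 0.13 at ZT4 (adjusted p = 0.914, limma). Igfbp3, Igfbp7, Insr and Irs1 were below the filter.

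Ptgds encodes the enzyme that makes prostaglandin D2 and also carries small lipids in the cerebrospinal fluid as beta-trace. Its 3 probe sets were all tested, and 2 of them (102105_f_at and 92545_f_at) are of a design that can bind members of a sequence family. Probe set 92546_r_at gave 13050.2 and 14219.8 in S1/2-/- mice at ZT16 and 13003 and 15542 at ZT4, against 13568 and 13834 in WT at ZT16 and 14228 and 15670.2 at ZT4. These ranges overlapped, and the log2 difference at ZT4 was -0.07 (95% interval -0.29 to 0.15, adjusted p = 0.926, limma).

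The other Ptgds probe sets were lower in S1/2-/- mice at ZT4. Probe set 92545_f_at gave 8779.8 and 10263 in S1/2-/- at ZT16 and 9566 and 10136 at ZT4, against 8971 and 10349 in WT at ZT16 and 11489 and 12716 at ZT4. Both WT signals at ZT4 thus stood above the other 6 arrays, and the share of probe sets with such a separation was not counted. The log2 difference of 92545_f_at between S1/2-/- and WT at ZT4 was -0.30 (SE 0.11, adjusted p = 0.573, limma). Between ZT16 and ZT4 in WT it was -0.33 (SE 0.11, adjusted p = 0.604, limma). Probe set 102105_f_at gave 12252 and 14809 in S1/2-/- at ZT16 and 10704 and 12667 at ZT4, against 13765 and 12924 in WT at ZT16 and 15141 and 13665 at ZT4, with a log2 difference at ZT4 of -0.30 (SE 0.11, adjusted p = 0.585, limma). The 3 probe sets of the gene thus gave -0.30 to -0.07 at ZT4, and none was called. Oligodendrocyte genes, another source of Ptgds transcripts, had a summed signal of 30719 to 34404 in S1/2-/- samples and 20037 to 27615 in WT samples. At ZT4, 11 of 11 tested genes were higher in S1/2-/- and 4 of them called, against 49.3% and 0.0939% of all tested probe sets. Their part in the Ptgds signal was not tested.

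Among 18 other genes of prostaglandin synthesis and reception listed, 15 were on the array and 3 were tested (Ptges2, Ptgs2 and Tbxas1), none of them called and 1 with an unadjusted p under 0.05, Ptges2 between the times in S1/2-/- mice. The prostaglandin D2 receptor Ptgdr gave 5.51 to 56.9 and was not tested.

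Col1a1 and Col1a2 encode the chains of type I collagen, the main fibrillar collagen of the pia and dura. Col1a1 probe set 103709_at gave 377 and 353 in S1/2-/- mice at ZT16 and 179 and 324 at ZT4, against 348 and 314 in WT at ZT16 and 192 and 649.8 at ZT4. Its other probe set, 94305_at, gave 156 and 206 in S1/2-/- at ZT16 and 150.4 and 252 at ZT4, against 108 and 208 in WT at ZT16 and 119.9 and 654 at ZT4. In both probe sets WT at ZT4 replicate 2 was the highest array. Apart from it, the groups overlapped in 94305_at. In 103709_at both S1/2-/- signals at ZT16 lay above the rest, and the other groups overlapped.

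The log2 difference between S1/2-/- and WT at ZT4 was -0.56 for 103709_at (95% interval -1.62 to 0.51, adjusted p = 0.854, limma) and -0.52 for 94305_at (95% interval -2.01 to 0.96, adjusted p = 0.919, limma). Without WT at ZT4 replicate 2 these values turned to 0.32 and 0.70. That 1 array therefore set the direction for Col1a1 at ZT4.

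Col1a2 probe set 101130_at gave 209 and 242 in S1/2-/- mice at ZT16 and 242 and 289 at ZT4, against 98.9 and 161 in WT at ZT16 and 157 and 522 at ZT4. The same WT array was the highest. Its log2 difference between ZT16 and ZT4 in WT was -1.18 (SE 0.49, adjusted p = 0.625, limma), and -0.31 without that array. Probe set 161156_r_at gave 1351 and 1529.9 in S1/2-/- at ZT16 and 1083 and 1213 at ZT4, against 1215 and 1414 in WT at ZT16 and 1090.4 and 1429 at ZT4. Here WT at ZT4 replicate 2 was not the highest, and the WT log2 difference between ZT16 and ZT4 was 0.07 (95% interval -0.28 to 0.42, adjusted p = 0.939, limma).

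Col3a1, the fibrillar collagen of soft connective tissue and vessel walls, was measured near the lower end of the signals. Its probe set with the highest mean, 98331_at, gave 68.4 and 82.6 in S1/2-/- mice at ZT16 and 137 and 52.9 at ZT4, against 95.8 and 40.5 in WT at ZT16 and 99.1 and 74.7 at ZT4. The groups overlapped, and in the fit without a filter the log2 difference over both times was 0.13 (95% interval -0.87 to 1.13, adjusted p = 0.947, limma). The other probe sets, 161984_f_at and 102990_at, ranged from 2.09 to 94.5.

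**Figure D3:**
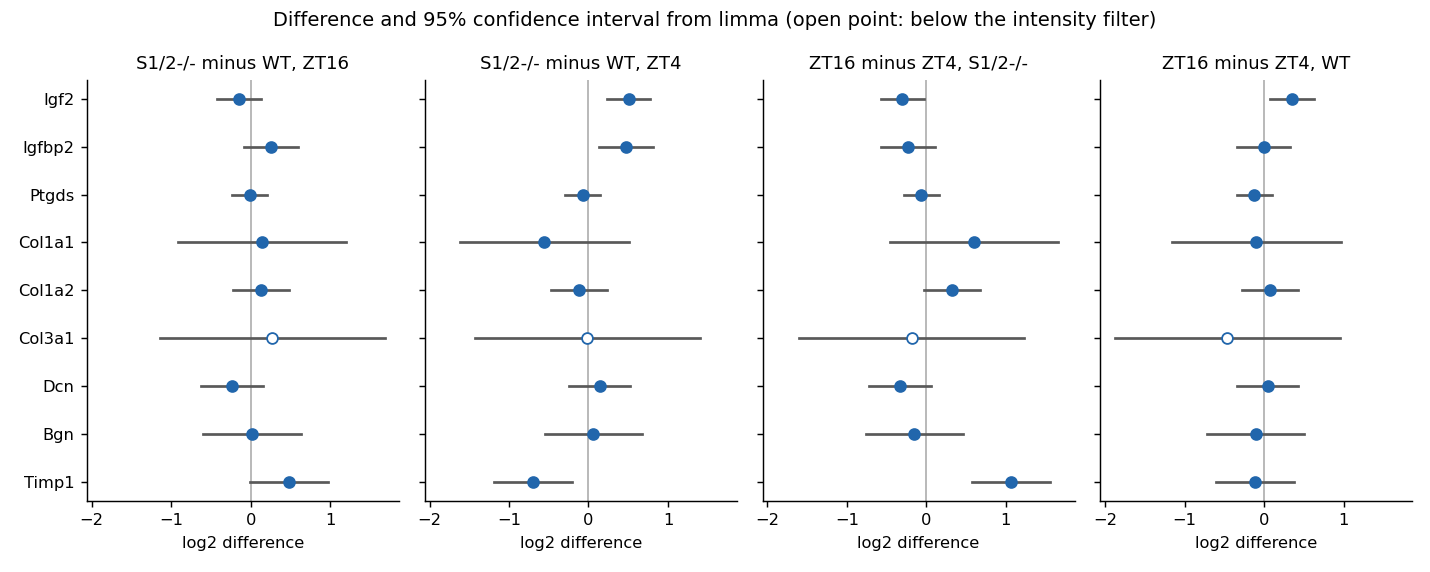
Log2 differences (points) with 95% confidence intervals (lines) from limma for the 9 genes, each from the probe set with the highest mean, in 4 comparisons: S1/2-/- minus WT at ZT16 and at ZT4, and ZT16 minus ZT4 in S1/2-/- and in WT, with 2 mice on each side. The open point is Col3a1, from the fit without a filter. Col1a1 has an interval of -1.62 to 0.51 at ZT4, and Ptgds one of -0.29 to 0.15.

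Dcn and Bgn encode decorin and biglycan, small leucine-rich proteoglycans that bind collagen fibrils and TGF-beta. Dcn gave 512 and 589 in S1/2-/- mice at ZT16 and 704 and 679.6 at ZT4, against 619 and 676 in WT at ZT16 and 546 and 722 at ZT4. Within S1/2-/- mice both ZT16 signals lay below both ZT4 signals, with a log2 difference of -0.33 (95% interval -0.72 to 0.05, adjusted p = 0.717, limma). The WT groups overlapped, and how many probe sets separate as in the S1/2-/- mice was not counted. Between S1/2-/- and WT at ZT16 the log2 difference was -0.24 (95% interval -0.62 to 0.15, adjusted p = 0.639, limma).

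Bgn probe set 96049_at gave 404 and 423 in S1/2-/- mice at ZT16 and 428 and 491 at ZT4, against 381 and 438 in WT at ZT16 and 316 and 611 at ZT4. Its log2 difference at ZT4 was 0.06 (95% interval -0.55 to 0.67, adjusted p = 0.979, limma), and 0.54 without WT at ZT4 replicate 2, again the highest array. Probe set 162347_f_at, of a design that can bind members of a sequence family, gave 138 and 328 in S1/2-/- at ZT16 and 347 and 349 at ZT4. In WT it gave 248 and 283 at ZT16 and 47.0 and 313 at ZT4. Its log2 difference at ZT4 was 1.52 (95% interval -0.07 to 3.11, adjusted p = 0.699, limma), which became 0.15 without WT at ZT4 replicate 1, whose signal of 47.0 was the lowest, and 2.89 without replicate 2. The 2 WT mice at ZT4 thus lay on opposite sides of the S1/2-/- mice for the first probe set of Bgn.

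Among 14 genes of TGF-beta signalling, all on the array, 6 were tested and none was called or had an unadjusted p under 0.05 in the 7 comparisons. Their median log2 difference between S1/2-/- and WT was -0.09 at ZT16, with 2 higher and 4 lower, and -0.01 at ZT4, with 3 higher and 3 lower. The ligand Tgfb1 (13.4 to 23.3) and the receptors Tgfbr1 (5.43 to 64.6) and Tgfbr2 (5.80 to 59.7) were below the filter.

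Timp1 encodes a secreted inhibitor of matrix metalloproteinases. Its probe set 101464_at gave 646 and 474 in S1/2-/- mice at ZT16 and 237 and 297 at ZT4, against 442 and 356 in WT mice at ZT16 and 439.6 and 418 at ZT4. The S1/2-/- samples lay above all WT samples at ZT16 and below all of them at ZT4, while the WT times overlapped. The share of all probe sets with such a separation was not counted. In S1/2-/- mice the log2 difference between ZT16 and ZT4 was 1.06 (SE 0.22, adjusted p = 0.427, limma), a fold of 2.09, from means of 560.0 ± 122 and 267 ± 42.5 (SD, n = 2 each). In WT mice it was -0.11 (95% interval -0.60 to 0.38, adjusted p = 0.927, limma). The difference of the changes was 1.17 (SE 0.31, adjusted p = 0.620, limma). Between S1/2-/- and WT the log2 difference was 0.48 at ZT16 (SE 0.22, adjusted p = 0.466, limma) and -0.69 at ZT4 (SE 0.22, adjusted p = 0.461, limma). When 1 mouse was left out, the value at ZT16 ran from 0.26, without S1/2-/- at ZT16 replicate 1, to 0.70. The second probe set of Timp1, 162107_r_at, ranged from 3.32 to 88.8 and was not tested.

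Genes of collagen processing and matrix turnover numbered 31, of which 24 were on the array and 13 were tested, with 0 called. Between ZT16 and ZT4, averaged over the genotypes, 3 had an unadjusted p under 0.05, against 9.38% of all tested probe sets. Averaged over the genotypes, 11 of the 13 were higher and 2 lower at ZT16 than at ZT4, against 49.3% of all tested probe sets higher. Their median log2 difference was 0.06, beside -0.0041 over all tested probe sets. Plod3 and P4ha1, which hydroxylate collagen, and Serpinh1, its chaperone in the endoplasmic reticulum, had log2 differences of 0.53 (SE 0.14), 0.46 (SE 0.14) and 0.43 (SE 0.15) between ZT16 and ZT4, with adjusted p of 0.344, 0.394 and 0.417 from limma. Plod3 gave 488 and 408 in S1/2-/- mice at ZT16 and 311 and 342 at ZT4, against 413 and 377 in WT at ZT16 and 257 and 265 at ZT4. In both genotypes its ZT16 signals were above its ZT4 signals, a separation whose share over all tested probe sets was not counted. The metalloproteinases Mmp3, Mmp9 and Mmp13 were below the filter. Timp2, the related inhibitor, gave 1034 to 1159 in S1/2-/- samples and 905 to 1012 in WT samples. Every S1/2-/- signal lay above every WT signal in 3.43% of the tested probe sets. The log2 difference of Timp2 over both times was 0.25 (SE 0.09, adjusted p = 0.306, limma).

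Of 51 other genes of meningeal fibroblasts and stromal matrix, 43 were on the array and 27 were tested, with 13 higher and 14 lower in S1/2-/- over both times. Called was 1 of them in the 7 comparisons, Aldh1a1, which encodes a dehydrogenase that makes retinoic acid. It gave 1840.5 and 2279.9 in S1/2-/- mice at ZT16 and 2333 and 2346 at ZT4, against 1295 and 1488 in WT at ZT16 and 1266 and 1459 at ZT4. All S1/2-/- signals were above all WT signals, as for 3.43% of the tested probe sets. Its log2 difference over both times was 0.67 (SE 0.10, adjusted p = 0.0264, limma), a fold of 1.59. Leaving out any of 6 mice in turn took the adjusted p over the threshold, to 0.0540 to 0.161. Lamc1, a laminin chain of basement membranes, gave 235 and 213 in S1/2-/- mice at ZT16 and 261 and 323 at ZT4, against 159 and 172 in WT at ZT16 and 57.9 and 93.1 at ZT4. Its log2 difference at ZT4 was 1.98 (SE 0.33, adjusted p = 0.0698, limma). Mgp, an inhibitor of calcification made by fibroblasts and mural cells, gave 198 to 336 in S1/2-/- samples and 334 to 511 in WT samples, with a log2 difference over both times of -0.64 (SE 0.21, adjusted p = 0.288, limma). Fbln1, a matrix glycoprotein, gave 807 and 656 in S1/2-/- mice at ZT16 and 444 and 503 at ZT4, against 654 and 660 in WT at ZT16 and 628 and 694 at ZT4. In S1/2-/- mice its log2 difference between ZT16 and ZT4 was 0.62 (SE 0.16, adjusted p = 0.458, limma), and the WT times overlapped.

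Across the arrays, 4 of the 8 tested genes (Ptgds, Col1a1, Dcn and Bgn, each by its probe set with the highest mean) were highest in WT at ZT4 replicate 2, as were 10.7% of all tested probe sets. Its signal over the other 7 arrays, whose mean was taken on the log2 scale, was 2.26-fold and 3.97-fold for the probe sets of Col1a1. It was 2.75-fold and 1.13-fold for those of Col1a2, and 1.17-fold for Dcn. For Igf2 it was 0.733-fold. This array was singled out after its type I collagen signals had been seen, so the count above and the ranking below are a description. Of all 7453 tested probe sets, Col1a1 94305_at had the largest excess in this array over the next highest, 2.59-fold. The 5 next to it were probe sets of Rps13 (2.38-fold), Lyz2, Col1a2, Camp and the other probe set of Col1a1. Lyz2 and Camp are genes of granulocytes and macrophages. Tnnc2 and Reg2 ranked below these.

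Several granulocyte genes, from a list written after their values had been seen, stood out on the same array. S100a8, which encodes a calcium-binding protein of neutrophils, gave 765 there, against 22.4 to 91.4 in S1/2-/- samples and 35.6 to 91.5 in the other WT samples. S100a9, its partner, gave 628 there, against 11.4 to 57.9 in S1/2-/- samples and 12.8 to 20.9 in the other WT samples. Ngp, a granule protein of immature neutrophils, gave 268, against 11.3 to 27.4 on the other 7 arrays. S100a8, S100a9 and Ngp were below the filter and not tested. Of 12 granulocyte and marrow genes, 8 were highest there, with a summed signal of 3378 against 840.3 to 1424 elsewhere. Mpo (25.3 there), Mmp8 (24.6), Prtn3 (87.3) and Lcn2 (93.0) had higher signals on other arrays. Of 4 bone genes on the array 1 was highest there, with a summed signal of 442 against 259 to 435. The haemoglobin gene Hba-a1 was high there (5701) and in S1/2-/- at ZT4 replicate 1 (6204), where S100a8 was 25.3. The part of marrow or blood in the collagen signals was not tested.

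**Figure D4:**
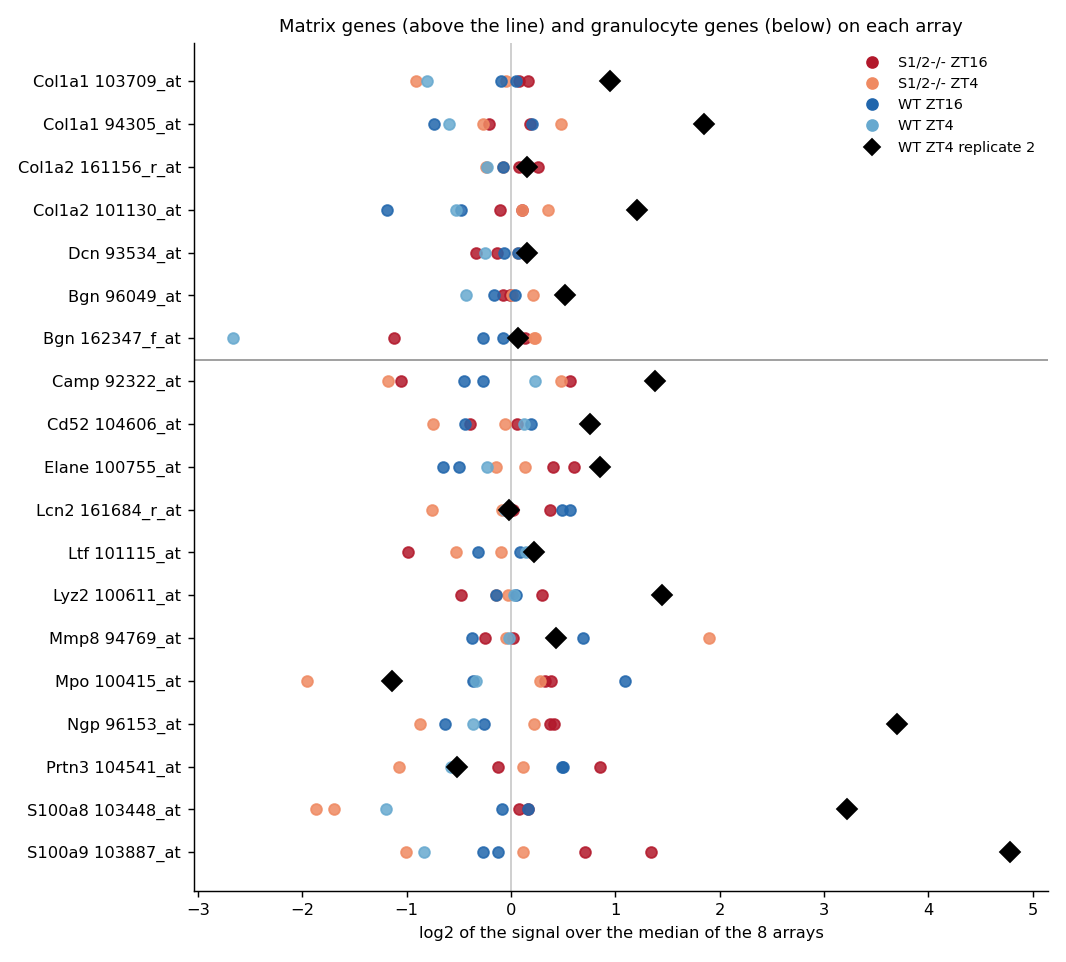
Log2 of the signal over the median of the 8 arrays, for the tested probe sets of Col1a1, Col1a2, Dcn and Bgn (above the line) and for 12 granulocyte and marrow genes (below). Circles are arrays coloured by group, and the black diamond is WT at ZT4 replicate 2. The diamond is the highest point for both Col1a1 probe sets and for 8 of the 12 granulocyte genes, S100a8 (765) and S100a9 (628) among them, and not for Col1a2 161156_r_at.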

How the data were processed

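Cortex from 8 mice was hybridised on Affymetrix arrays, 1 array a mouse. The authors deposited the intensity of 12488 probe sets as MAS5 signals on a linear scale; the version of MAS5 and a genome build are not given in the sources used here. Each deposited column has a mean of 500 after 2% is trimmed at each end, so differences are relative to each array's own signal, and no detection calls were used. The number of arrays limits the precision. Per the labels and methods each mouse is a biological replicate. Labels and methods differ in the RNA preparation (Trizol, RNeasy).

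For testing, the 66 controls were dropped, the 64 signals under 1 were raised to 1, and values were put on the log2 scale. Of 12422 probe sets, 10833 had 1 symbol in the array's annotation, 396 several and 1193 none. Those whose mean log2 signal reached 6.79 (40th percentile) entered the test in limma 3.58.1 in R 4.3.3 (4 group means, intensity trend, 4 residual and 6.02 prior degrees of freedom). A gene is represented by its probe set with the highest mean, and its other probe sets are given beside it. Named beyond the 9 genes were, of 13 other gene lists, up to 4 members by the moderated statistic, those below the filter that define a list, and the 5 genes most like Igf2. The members and lists were chosen with earlier results of these data known. The steps were tested on simulated data. Replicate numbers were checked as pairs, and correlations of deviations between groups were -0.0014 to 0.0982 over 6 pairs of groups, so no block was used.

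Each result was recomputed after dropping the filter or raising it to the 60th percentile, after median centring or quantile normalization, adding a pseudocount of 16, without the intensity trend, with the replicate number as a block, in a fit of only the groups compared, by ordinary ANOVA within a genotype, from the other probe sets, and without each mouse; the mouse left alone in a group is then assumed to vary like the others.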

Additional observations from a re-analysis of the deposited data

Results flagged for a closer look

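The ZT16 minus ZT4 change of Igf2 differed in sign between the genotypes, with both S1/2-/- signals lower and both WT signals higher at ZT16. The difference of the changes, S1/2-/- minus WT, was -0.65 on the log2 scale, and the test of the difference itself had an adjusted p = 0.620 (limma) and did not pass. It ran from -0.78 to -0.52 when 1 mouse was left out.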

How the results depend on the processing

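No member gene was called in any comparison under any alternative that was run. The number of probe sets called among all genes varied. Between S1/2-/- and WT at ZT4, where 7 were called, it was 12 with a filter at the 60th percentile, 11 with median centring, 0 without an intensity trend, 13 when only the compared groups were fitted and 0 to 14 when a mouse was left out. At ZT16, where 1 was called, it was 0 without a filter, 6 with the stricter filter, 0 without the trend and 0 to 154 without a mouse. Over both times, where 19 were called, it was 11 without a filter, 11 with median centring, 0 without the trend and 1 to 88 without a mouse. Between ZT16 and ZT4 in WT, where 1 was called, it was 0 without a filter, 4 with the stricter filter, 5 with median centring, 0 without the trend, 2 in the fit of only these groups, 0 by ordinary ANOVA and 0 to 100 without a mouse (0 to 1 in S1/2-/-, 0 to 35 for the mean of both genotypes and 0 to 17 for the difference of the changes, where 0 were called). With the replicate block, which has no support as a pairing, it was 13 at ZT4, 0 at ZT16, 10 between the times in WT and 2 for the difference of the changes.

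The median of the 8 genes ran from -0.23 to 0.33 between S1/2-/- and WT at ZT4 when a mouse was left out, -0.18 to 0.23 between the times in WT, and -0.29 to 0.28 for the difference of the changes. It was 0.33, 0.23 and -0.29 without WT at ZT4 replicate 2. Leaving out each mouse in turn moved several single values across 0. Between S1/2-/- and WT at ZT4 these ran from -0.20 to 0.0578 for Ptgds 92546_r_at (positive without S1/2-/- replicate 1), -1.43 to 0.32 for Col1a1 103709_at and -1.75 to 0.70 for Col1a1 94305_at (both positive without WT replicate 2), and -0.41 to 0.54 for Bgn 96049_at (negative without WT replicate 1 and, at -0.04, without S1/2-/- replicate 2). Over both times Col3a1 ran from -0.22 to 0.47 (negative without S1/2-/- at ZT4 replicate 1 and, at -0.18, without WT at ZT16 replicate 2). Between the times in WT, Col1a2 161156_r_at ran from -0.12 to 0.27 (negative without ZT4 replicate 1 and, at -0.04, without ZT16 replicate 2) and Timp1 from -0.27 to 0.0439 (positive without ZT16 replicate 2). Exchanging probe sets turned the WT time values of Igf2 (-0.42), Col1a2 (-1.18 in place of 0.0702, and 0.0702 in place of -1.18) and Timp1 (0.21), and Timp1 between genotypes at ZT16 (-1.14); the other probe sets of Igf2 and Timp1 were near background. Aldh1a1 also missed the threshold with median centring (adjusted p = 0.0518) and without the trend (adjusted p = 0.184, limma). The causes were not tested.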
